A study of Homo sapiens with 2 samples.

Results

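MEIS1, MEIS2, MEIS3, PKNOX1, PKNOX2, PBX2, PBX3 and PBX4 encode homeodomain transcription factors, of which the MEIS and PKNOX proteins pair with the PBX proteins. The mRNA of these 8 genes was compared between wild-type (WT) and MEIS2-/- (knockout) cells at day 4 of hematopoietic differentiation. The 8 genes were chosen by family membership, as MEIS2 with its close relatives and dimer partners, and they are 8 of the 17397 genes listed in the expression tables. The tables name genes by NCBI Gene number, and the 8 genes were found through the current symbols of those numbers. All 8 reached 1 FPKM in 1 library or in both. FPKM is the number of sequenced fragments per kilobase of transcript, scaled to the fragments mapped in the library, so that levels of different genes within a library can be set side by side.

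The data comprised 1 library of WT H1 cells and 1 library of MEIS2-/- H1 cells, both at day 4. H1 is a widely used human embryonic stem cell line. For the first 2 days both cultures received activin A at 50 ng/ml and BMP4 at 40 ng/ml, and for the next 2 days VEGF at 40 ng/ml and bFGF at 50 ng/ml. The MEIS2-/- line was made with CRISPR/Cas9, delivered by lentivirus under puromycin selection, and a guide RNA against exon 3 of MEIS2 and grown from single cells, the study describes 2 homozygous clones, and the labels do not say which of them was sequenced. With 1 library per genotype no spread between cultures could be measured, so every difference here is between these 2 libraries, without a test or an error.

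TALE homeodomain proteins carry an extra loop of 3 amino acids in the DNA-binding domain. MEIS and PKNOX proteins bind PBX proteins through their amino-terminal parts, and this pairing takes PBX proteins into the nucleus and keeps them there. The pairs bind DNA alone or together with HOX proteins. In blood formation MEIS1 is known as a factor that stem cells and megakaryocytes need, and as a partner of HOXA9 and PBX3 in acute leukemia.

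The coding sequence of the homeobox shows how the members are related. Below are the last 72 bases of the 189-base homeobox of 7 of the genes, which encode the helix that contacts the DNA. They are printed 5′ to 3′ in the direction of transcription, with capitals where the base differs from that of MEIS2 at the same place.

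MEIS2: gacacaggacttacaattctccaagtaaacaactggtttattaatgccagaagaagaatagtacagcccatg
MEIS1: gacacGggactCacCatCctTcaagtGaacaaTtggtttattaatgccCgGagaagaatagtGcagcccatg
MEIS3: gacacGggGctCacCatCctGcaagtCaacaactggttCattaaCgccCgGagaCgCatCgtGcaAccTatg
PKNOX1: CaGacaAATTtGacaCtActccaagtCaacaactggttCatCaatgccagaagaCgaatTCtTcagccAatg
PKNOX2: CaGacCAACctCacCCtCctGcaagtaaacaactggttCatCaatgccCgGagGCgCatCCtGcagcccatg
PBX2: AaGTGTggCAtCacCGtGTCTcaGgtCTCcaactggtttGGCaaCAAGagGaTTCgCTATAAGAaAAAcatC
PBX3: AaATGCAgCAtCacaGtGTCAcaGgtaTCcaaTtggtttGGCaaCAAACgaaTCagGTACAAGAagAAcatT

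The sequences come from GENCODE 29 transcripts on GRCh38, and each is split between 2 coding exons by an intron. The MEIS2 stretch lies at chr15:36896650-36950358 on the minus strand, in exons 9 and 10 of the transcript used. Those of MEIS1, at chr2:66547985-66567489 on the plus strand, and of MEIS3, at chr19:47407101-47407386 on the minus strand, are also in exons 9 and 10. PKNOX1 lies at chr21:43024913-43028738 and PKNOX2 at chr11:125429054-125429999, both on the plus strand. PBX2 lies at chr6:32187348-32187670 on the minus strand and PBX3 at chr9:125935584-125960731 on the plus strand, each in exons 5 and 6.

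Over the whole homeobox MEIS1 was identical to MEIS2 at 83.6% of bases, and 1 of its 63 codons encodes another amino acid. MEIS3 was identical at 77.2% of bases, with 2 such codons, in the listed transcript whose homeobox was most like that of MEIS2. For PKNOX1 and PKNOX2 the identity with MEIS2 was 67.7% and 68.8%. PBX2 and PBX3 shared 46.0% and 49.7% of their homeobox bases with MEIS2, and 79.9% with each other.

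MEIS2 itself, the edited gene, was listed at 10.85 FPKM in WT and 3.44 FPKM in knockout cells, so 31.7% of the WT level remained. Its log2 fold change was -1.63, where 0.1 FPKM was added to both values and a negative sign means lower in knockout cells. An edit at a single site of an exon leaves the rest of the gene in place, and reads from an edited transcript still count toward its FPKM. The level of the mRNA is therefore no measure of how much MEIS2 protein was left. For the protein, the study picked out its knockout stem cell lines by western blotting and sequenced the MEIS2 locus. In bulk RNA, here and for every gene that follows, fewer cells of a type and less RNA per cell cannot be told apart. The gene spans chr15:36889204-37101299 of GRCh38 on the minus strand, and its value was set over 8 listed transcripts.

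MEIS3, a less studied member known from hindbrain patterning in frog embryos, was the most abundant of the 8 mRNAs in WT cells. It was at 85.99 FPKM in WT and 33.09 FPKM in knockout cells, a log2 fold change of -1.38. The FPKM of MEIS3 was 7.93 times that of MEIS2 in WT cells and 9.62 times that of MEIS2 in knockout cells. In FPKM the difference of MEIS3 between the libraries, -52.90, was larger than that of any other member, and that of MEIS2 was -7.41. The MEIS3 gene spans chr19:47403124-47419523 of GRCh38 on the minus strand.

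MEIS1 was at 4.97 FPKM in WT and 3.41 FPKM in knockout cells, with a log2 fold change of -0.53. MEIS2 was 2.18 times as abundant as MEIS1 in WT cells. In MEIS2-/- cells both were near the same level, at a ratio of 1.01.

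The PKNOX genes, also known as PREP genes, encode relatives of the MEIS proteins that bind PBX through a similar amino-terminal part. PKNOX1, which mouse embryos need for normal blood formation, was at 6.60 FPKM in WT and 5.51 FPKM in knockout cells, a log2 fold change of -0.26. PKNOX2 was at 4.71 FPKM in WT and 1.99 FPKM in knockout cells, a log2 fold change of -1.20. The PKNOX2 gene spans chr11:125164687-125433389 on the plus strand. The PKNOX2 to PKNOX1 ratio was 0.714 in WT cells and 0.361 in knockout cells.

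Of the PBX genes, whose proteins are the partners in these pairs, PBX2 and PBX3 stood nearly level between the libraries, while PBX4 was lower in knockout cells by about as much as MEIS1 on the log2 scale. PBX2, which is made in most tissues, was at 72.89 FPKM in WT and 73.29 FPKM in knockout cells, so that its log2 fold change was 0.01 as deposited and -0.11 when the libraries were scaled to a median log2 ratio of 0. PBX3 was at 7.65 FPKM and 7.49 FPKM, a log2 fold change of -0.03. PBX4, known from germ cells of the testis, was the lowest of the 8 on either side, with 2.24 FPKM in WT and 1.57 FPKM in knockout cells, a log2 fold change of -0.49.

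**Figure D1:**
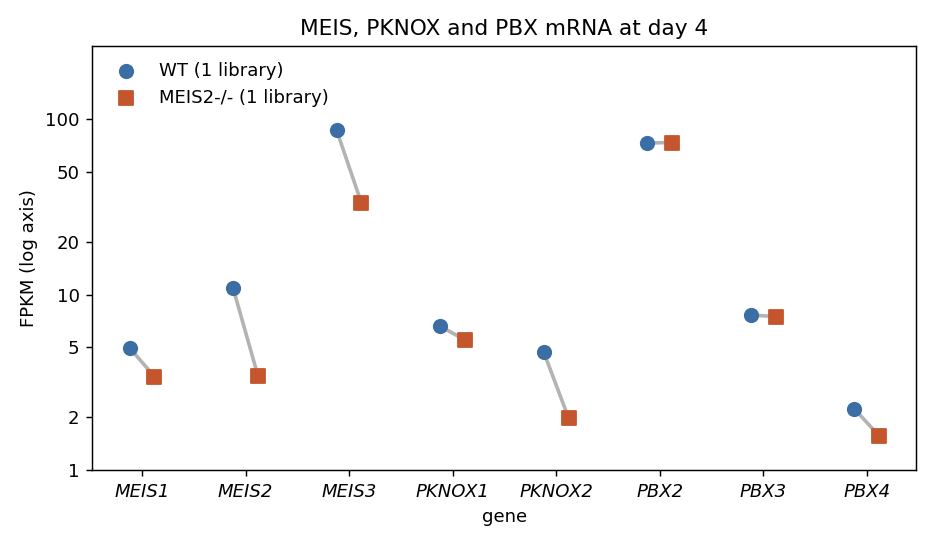
Expression of the 8 genes in FPKM on a log axis, with 1 point per library, a circle for WT and a square for MEIS2-/-, joined by a line for each gene. MEIS3 and PBX2 stand above the rest in both libraries, and the lines of MEIS2, MEIS3 and PKNOX2 are the steepest, with MEIS2 at 10.85 and 3.44 FPKM.

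The order of the levels differed between the libraries. In WT cells it ran from MEIS3 through PBX2, MEIS2, PBX3, PKNOX1, MEIS1 and PKNOX2 to PBX4. In MEIS2-/- cells PBX2 was first and MEIS3 second, and MEIS2 stood at place 5, behind PBX3 and PKNOX1, where it had been at place 3 in WT cells. Without replicates it is not known which neighbors in this order differ beyond the spread between cultures. In WT cells, 95.1% of all listed genes were below MEIS3 and 66.6% below MEIS2. In MEIS2-/- cells, the shares were 85.6% for MEIS3 and 42.9% for MEIS2.

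Counted by a difference of at least 2-fold, 3 of the 8 genes were lower in knockout cells, namely MEIS2, MEIS3 and PKNOX2, and 0 were higher. Among the 13075 genes that reached 1 FPKM in either library, the compared genes, 7.97% were at least 2-fold lower and 7.84% at least 2-fold higher. With the libraries scaled to a median log2 ratio of 0, these were 1197 genes lower and 833 higher, in place of 1042 and 1025. MEIS2 is the gene that was edited. Of the 7 other members, 2 were at least 2-fold lower. Counting differences of any size, 7 of the 8 genes were lower, and the median log2 fold change was -0.51, beside 0.12 over all compared genes. Relative to the overall shift of 0.12, the log2 fold change was -1.74 for MEIS2, -1.49 for MEIS3, -1.32 for PKNOX2 and -0.65 for MEIS1, and it lay between -0.60 and -0.11 for the others.

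The share of genes past this threshold depended on the level. Among compared genes with a mean under 5 FPKM, where MEIS1, PKNOX2 and PBX4 lie, 12.9% were at least 2-fold lower. The share was 5.85% among genes with a mean of 5 to 20 FPKM, the class of MEIS2, PKNOX1 and PBX3. It was 5.30% among genes with a mean of 20 FPKM or more, where MEIS3 and PBX2 lie. Ordered by log2 fold change from the lowest, MEIS2 held rank 418 of the 13075 genes, MEIS3 rank 614 and PKNOX2 rank 787. The other members stood higher, from rank 2060 for MEIS1 to rank 5404 for PBX2.

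**Figure D2:**
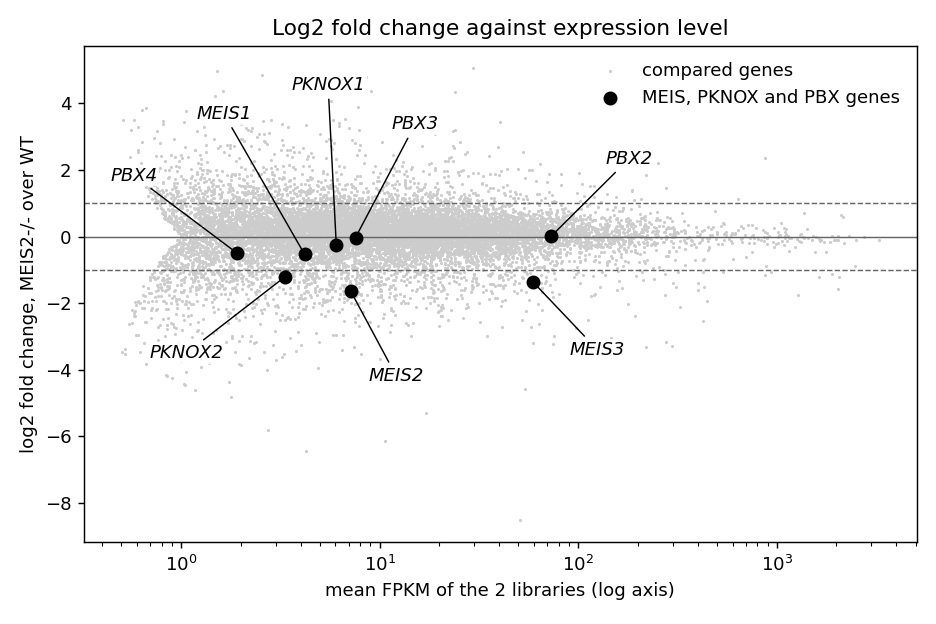
Log2 fold change of MEIS2-/- over WT against the mean FPKM of the 2 libraries on a log axis, with 1 grey point for each of 13075 genes and black points for the 8 members. Dashed lines mark 2-fold, and MEIS2 at -1.63, MEIS3 at -1.38 and PKNOX2 at -1.20 lie below the lower line.

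Summed over the 5 MEIS and PKNOX genes, the level was 113.12 FPKM in WT and 47.44 FPKM in knockout cells, a log2 ratio of -1.25. MEIS3 made up 76.0% of this sum in WT cells and 69.8% in knockout cells, while MEIS2 made up 9.59% and 7.25%. Of the difference between the sums, 80.5% came from MEIS3 and 11.3% from MEIS2. Without MEIS3, the highest of the 5, the remaining 4 genes summed to 27.13 FPKM and 14.35 FPKM, a log2 ratio of -0.92 as deposited. This is just short of 2-fold, and scaling to the median log2 ratio, which lowers it by a further 0.12, takes it past 2-fold.

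The sum of PBX2, PBX3 and PBX4 was 82.78 FPKM in WT and 82.35 FPKM in knockout cells, a log2 ratio of -0.01 as deposited, 0.01 with both libraries scaled to the same FPKM sum and -0.12 with scaling to the median log2 ratio. PBX2 alone made up 88.1% of this sum in WT cells and 89.0% in knockout cells. MEIS and PKNOX mRNA together was 1.37 times the PBX sum in WT cells and 0.576 times in knockout cells. Such a ratio within a library does not depend on how the libraries are scaled to each other. It compares mRNA, and protein levels were not analysed here.

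**Figure D3:**
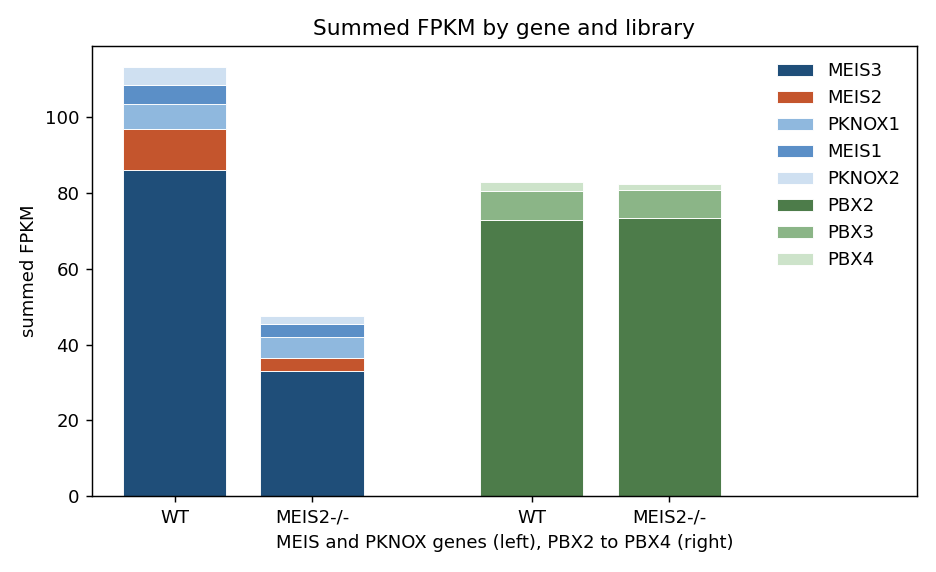
Stacked bars of summed FPKM for the MEIS and PKNOX genes on the left and for PBX2, PBX3 and PBX4 on the right, 1 bar per library. The left bars stand at 113.12 FPKM in WT and 47.44 FPKM in knockout cells, with most of the difference in the dark blue MEIS3 part, and the right bars at 82.78 and 82.35 FPKM.

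How far reads of a member can be told from those of other genes was looked up in windows of 50 bases of the listed transcripts. No window was shared between any 2 of the 8 genes, so reads of at least 50 bases without errors separate the members from one another. PBX2 shared 36.8% of its windows with other annotated genes, namely its pseudogene PBX2P1 and a noncoding RNA that overlaps its end. For MEIS3 the share was 8.74%, mainly with the related MEIS3P1 and MEIS3P2. MEIS2 shared 4.99% of its windows with an overlapping antisense RNA, and PKNOX1 shared 1.18%. MEIS1, PKNOX2, PBX3 and PBX4 shared 0, although 2 antisense RNA genes overlap the MEIS1 gene. The read length and the handling of strand are not given in the sources used here, so the values of PBX2 above all, and of MEIS3 and MEIS2, may hold reads of these other genes.

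HOX proteins are the third kind of partner in these complexes. Of 39 HOX genes, 33 were listed and 10 reached 1 FPKM, HOXB1 to HOXB9 and HOXA13. In MEIS2-/- cells 4 of these 10 were at least 2-fold lower and 0 higher, with a median log2 fold change of -0.78. The 4 were HOXB1 (1.96 FPKM in WT and 0.44 FPKM in knockout cells), HOXB3 (22.40 and 6.13 FPKM), HOXB4 (16.52 and 4.15 FPKM) and HOXB9 (21.93 and 9.95 FPKM). This list and those that follow stand beside 7.97% at least 2-fold lower and 7.84% at least 2-fold higher over all compared genes. The median log2 fold change over all compared genes was 0.12. The remaining TALE homeobox genes, of the TGIF and IRX groups, were split, with 2 at least 2-fold lower and 3 at least 2-fold higher among 8 compared.

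A list of 14 genes for proteins that bind TALE proteins, move them between nucleus and cytoplasm or take part in their turnover was compared in full. None of the 14 was at least 2-fold lower, and 2 were at least 2-fold higher. KLF4, a transcription factor reported to act with MEIS2, was at 7.26 FPKM in WT and 37.37 FPKM in knockout cells. CREBBP, a histone acetyltransferase that serves as a coactivator, was at 6.86 FPKM and 15.02 FPKM. CRBN, the substrate receptor of a ubiquitin ligase that takes MEIS2 as a substrate, was at 10.11 FPKM and 8.53 FPKM. PBXIP1, which binds PBX proteins and blocks their pairing on DNA, was at 49.56 FPKM and 35.05 FPKM. The median log2 fold change of the list was 0.26, beside 0.12 over all compared genes.

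Of 11 genes linked to MEIS proteins or their HOX and PBX partners in earlier work, 6 had at least 1 FPKM, and HOXB1 and HOXB2 are among the HOX genes above. In MEIS2-/- cells 2 of the 6 were at least 2-fold lower, HOXB1 and the cyclin gene CCND3, which was at 42.60 FPKM in WT and 15.49 FPKM in knockout cells. TRIB2, a pseudokinase gene known as a MEIS1 target in leukemia, was at 18.52 FPKM and 11.05 FPKM. MYB stood at 2.26 FPKM and 2.20 FPKM. HIF1A was the 1 compared gene of this list that was higher, at 30.30 FPKM in WT and 46.31 FPKM in knockout cells. FLT3, a target of MEIS1 in leukemia, was listed at 0 in WT cells and at 0.01 FPKM in knockout cells.

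Marker genes of several cell types also differed between these libraries. Of 10 endothelium markers, 8 were compared, and each was lower in knockout cells, by 2-fold or more for 5. The summed level of the 10 was 404.56 FPKM in WT and 96.46 FPKM in knockout cells. KDR, a VEGF receptor, was at 323.77 FPKM and 61.98 FPKM and made up most of the difference between these sums. CDH5, the cadherin of endothelial junctions, was at 15.20 FPKM and 5.02 FPKM. Of 10 lateral and cardiac mesoderm markers, 8 of the 9 compared were lower, 4 of them at least 2-fold, with sums of 862.53 FPKM and 529.20 FPKM. Of 10 hematopoietic markers, 5 were compared, 2 of them at least 2-fold lower and 1 higher, with sums of 16.79 FPKM and 12.31 FPKM, and PTPRC, which encodes CD45, was at 0.45 FPKM and 0.89 FPKM. Only 3 of the 10 neuroectoderm markers were compared, 1 of them at least 2-fold lower, and SOX3 and ZIC1 were listed at 0 in WT cells.

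Most compared markers of visceral endoderm and of pluripotent cells were higher in knockout cells. All 10 visceral endoderm markers were higher, 7 of them at least 2-fold, with sums of 615.86 FPKM in WT and 1311.96 FPKM in knockout cells. APOA1, an apolipoprotein gene, was at 401.38 FPKM and 879.13 FPKM and made up most of the difference between these sums. TTR, which carries thyroid hormone in blood, was at 0.38 FPKM and 5.31 FPKM. Of 8 pluripotency markers, 6 were compared and 3 were at least 2-fold higher, with sums of 613.84 FPKM and 1877.11 FPKM. POU5F1, which encodes OCT4, was at 285.65 FPKM and 1454.14 FPKM and made up most of the difference between these sums. DNMT3B, a DNA methyltransferase gene, was lower in knockout cells, at 76.91 FPKM in WT and 45.35 FPKM in knockout cells, while SOX2 was at 0.09 FPKM and 0.15 FPKM. The part of these marker differences in the values of MEIS1, MEIS2, MEIS3 and PKNOX2 was not tested. As for the labelled stage, WT cells held HAND1, a mesoderm gene, at 357.53 FPKM beside KDR. Of the other endothelium markers in WT cells, CD34 was at 21.80 FPKM, TEK at 16.01 FPKM and CDH5 at 15.20 FPKM, while PECAM1, which encodes CD31, was at 1.53 FPKM.

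The 250 bases before each annotated RefSeq start of the members gave 9 stretches for 7 of the 8 genes. These stretches were searched for letters that TALE proteins are known to bind, alone or with partners, and for a GATA core. On either strand, TGACAG, the MEIS core, was found in 1 of the 9, that of PBX3, beside 13.0% of all 35116 such stretches. TGATNNAT, a core bound by PBX with HOX, was also found in 1, before a MEIS2 start, beside 6.47% of all. TGATTGAC, a core bound by MEIS or PKNOX with PBX, was in 0 of the 9 and in 0.507% of all, and the GATA core AGATAA in 0 of the 9 and in 9.17% of all. The matches are shown with the motif in capitals, 5′ to 3′ in the direction of transcription, from GRCh38.p14. The MEIS2 stretch lies at chr15:37098742-37098771 on the minus strand, with its motif starting 64 bases before the start site. The PBX3 stretch lies at chr9:125748152-125748181 on the plus strand, with its motif, read on the other strand, 20 bases before the start site.

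MEIS2: atttcgcctttTGATTTATtggatcctcag
PBX3: actttgccgagCTGTCAccctcccgctggc

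A match to such short letters is a description of the window and does not show binding.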

How the data were processed

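RNA-seq was performed by BGI from H1-derived cells at day 4, with Trizol extraction and an Illumina TruSeq RNA kit as the labels describe. The authors deposited FPKM values per gene, rounded to 2 decimals, without read counts, so depth is unknown and no counting interval is given. The submitters' processing notes name BWA, Bowtie and RSEM and the build hg19, without versions or roles. Summed FPKM was 447542 for WT and 440651 for MEIS2-/- cells. A change in a few abundant genes shifts all other FPKM values.

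NCBI Gene numbers were matched to RefSeq symbols for 17365 of 17397 genes. Log2 fold changes used a pseudocount of 0.1 FPKM, which understates the change of low genes, and covered genes that reached 1 FPKM in either library. No test was possible with 1 library per genotype, and a 2-fold difference was counted. The members, lists and lookups were chosen with earlier results of these data known, and the lists were written by hand from general knowledge. All members are named, with up to 4 of the largest differences per list and genes on which a sentence turns. MEIS3P1, MEIS3P2 and PBX2P1 are named because the window search found them.

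The alternatives tried were a pseudocount of 1 or 0.01, leaving out the filter or raising it to 5 FPKM, counting at 1.5-fold or 4-fold, and scaling to the median log2 ratio, to a trimmed mean of the log ratios (TMM) or to equal sums. Sums without MEIS2 or MEIS3 were added after seeing the data. Calculations were tested on a copy of the WT values without noise, with 4-fold changes planted in genes of at least 5 FPKM. This checks the arithmetic only, and not the spread between libraries or the calls of low genes. The files hold no coordinates, and those printed are from GENCODE 29 (GRCh38) or RefSeq (GRCh38.p14). Homeobox stretches were located by the tryptophan of the DNA-contact helix in listed transcripts, and that of PBX4 is not reported here. Python 3.11.15, numpy 2.4.6, pandas 2.3.3 and matplotlib 3.10.9 were used.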

Additional observations from a re-analysis of the deposited data

How the results depend on the processing

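No difference has a replicate check, and FPKM holds no depth. Of 84 alternative values over 14 results, 72 stayed within 1.5 times the reported value and on the same side of 2-fold. No value past 2-fold changed sign, which pseudocounts and shifts of at most 0.12 could not bring about. Values near 0 did change sign, those of PBX2 and of the PBX sum. Over genes that reached 5 FPKM on both sides the median log2 ratio was 0.12, and scaling to it lowered every log2 ratio by this amount, and TMM by nearly as much. MEIS2 ran from -1.74 to -1.42 and MEIS3 from -1.49 to -1.35, both past 2-fold under each scaling and pseudocount. PKNOX2 reached -0.93 with a pseudocount of 1 FPKM and was removed by a filter at 5 FPKM, which left 2 members at least 2-fold lower in each case. With a 4-fold threshold 0 members were counted. The summed MEIS and PKNOX level without MEIS3 had a log2 ratio of -0.92 as deposited, and scaling to the median or by TMM takes it past 2-fold. Among all genes, the lower and higher counts of 1042 and 1025 became 1197 and 833 with scaling to the median, 1179 and 853 with TMM, 693 and 623 with a pseudocount of 1 FPKM, 598 and 554 with a filter at 5 FPKM, 1890 and 2353 at 1.5-fold, and 241 and 194 at 4-fold, and without a filter the higher count was 1567. No paired analysis was possible because each genotype has 1 library.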
